A study of Mus musculus with 6 samples.

Results

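A set of 9 genes around the thioredoxin-interacting protein gene Txnip was followed in RNA from bone marrow cells sorted and labelled as long-term blood stem cells (LT-HSC), which maintain blood cell production for life. They are Txnip, its relatives Arrdc2, Arrdc3 and Arrdc4, the thioredoxin gene Txn1, the glucose transporter genes Slc2a1 and Slc2a3, and Mlxip and Mlx, which encode a glucose-responsive pair of transcription factors. The 9 genes were chosen by symbol, from a list proposed when the diet comparison in these same libraries was already known. Their differences between diets are therefore given as a description and support nothing by themselves. All 9 were found among the 21851 genes of the deposited tables, and all 9 passed the filter of at least 1 FPKM (fragments scaled by transcript length and by library depth) in at least 3 libraries, as did 10676 genes in all.

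All mice were wild type. The diet lasted 3 months and was either the control diet (CD), with 3 libraries, or rich in cholesterol (HCD), with 3 libraries. Age, sex and strain are not given in the labels, nor whether a library is 1 animal or a pool, so errors measure only the spread between these libraries, which may be technical. The sort named by the submitters takes lineage-negative cells with KIT and SCA1 and without CD34 and CD135. Kit averaged 120 FPKM and Ly6a, which encodes SCA1, 64.2, but Cd34 averaged 464 and Flt3, which encodes CD135, 109, so the transcripts of the last pair go against the gate and the cells are called here only as labelled. The estimated depth was 18820000 to 19980000 reads or fragments per library. HCD replicate 2 stood apart from the other HCD libraries, and its values are given separately wherever it decides a difference. Marker genes of granulocytes summed to 870 to 899 FPKM in CD and 1610 to 1780 in HCD, with 9 of 9 tested markers higher. Most of each sum came from Mpo (means 475 in CD and 758 in HCD), Prtn3 (238 and 426), Ctsg (111 and 271) and Elane (44.8 and 180). S100a8 averaged 4.81 and 19.1 FPKM, and S100a9 4.8 and 14.0. Camp (0.44 and 2.84) and Lcn2 (0.288 and 2.49) averaged under 1 FPKM in CD and needed their HCD values to pass the filter. Immediate early genes respond to stimulation and to cell handling. They summed to 2820 to 3010 in CD and 5320 to 6740 in HCD, with 10 of 12 higher. Megakaryocyte and platelet markers summed to at most 54.1 FPKM in CD and to 82.0 to 96.8 in HCD, with 4 of 4 higher. The tested T and NK markers Nkg7 (means 104 in CD and 136 in HCD) and Klrb1c (0.63 and 1.26) rose. Klrb1c needed its HCD values to pass the filter, and Cd3e was at 0 in all libraries. The tested endothelium and stroma markers Pecam1 (32.5 and 41.0) and Pdgfrb (15.7 and 21.8) also rose. The others of that list, Cdh5, Kdr, Cxcl12, Lepr, Col1a1 and Col1a2, averaged at most 0.656 FPKM over all libraries. Markers of monocytes and macrophages were mixed (4 of 7 higher, 2 lower), 1 of 4 erythroid markers fell, and neither tested B cell marker passed. The part of these lists in the values below was not tested. In such bulk samples fewer cells of a type and less RNA per cell cannot be told apart.

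TXNIP is an alpha-arrestin, a protein with the arrestin fold that binds and restrains thioredoxin, the small protein that reduces disulphide bonds with electrons from NADPH. It also promotes the removal of glucose transporters from the cell surface, and its transcript rises when glucose 6-phosphate accumulates. That response runs through MondoA, encoded by Mlxip, or its relative ChREBP, each as a dimer with MLX, and Arrdc4 is the other classic target. In haematopoietic stem cells TXNIP is known for its links to quiescence, retention in the niche and control of reactive oxygen.

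The upstream sequences of Txnip and Arrdc4 are shown because the same dimer is known to act on both genes, while Txnip was lower under HCD and Arrdc4 was not past the threshold described below (the difference between the genes was not tested). They are the 250 bases before the RefSeq gene start (build GRCm38.p6), written 5′ to 3′ on the gene's strand, with matches in capitals. The Txnip stretch is chr3:96557707-96557956 on the plus strand and the Arrdc4 stretch is chr7:68749239-68749488 on the minus strand.
Txnip: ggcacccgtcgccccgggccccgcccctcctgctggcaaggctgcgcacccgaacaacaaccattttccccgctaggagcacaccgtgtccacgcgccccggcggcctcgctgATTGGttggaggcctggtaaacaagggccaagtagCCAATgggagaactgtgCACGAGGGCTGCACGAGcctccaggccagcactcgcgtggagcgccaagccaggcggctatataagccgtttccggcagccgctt
Arrdc4: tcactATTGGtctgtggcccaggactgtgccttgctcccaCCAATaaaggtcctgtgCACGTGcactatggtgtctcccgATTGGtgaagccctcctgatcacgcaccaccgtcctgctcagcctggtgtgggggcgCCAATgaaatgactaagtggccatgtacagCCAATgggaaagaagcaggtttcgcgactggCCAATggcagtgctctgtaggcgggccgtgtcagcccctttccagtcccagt
The capitals mark CCAAT on either strand, known as the box read by the factor NF-Y, CACGTG, the palindromic E-box core, and CACGNG found a second time after 5 bases, on either strand. The last pattern is a strict form of the arrangement of a carbohydrate response element and was added after the sequences had been seen. Other forms of that element were not searched, so a stretch without this pattern may still hold the element. The share of promoters with this pattern is likewise not the share with the element. Txnip held CCAAT at 2 places and the paired CACGNG at 1, beginning 85 bases before the start, and no CACGTG. Arrdc4 held CCAAT at 6 places and CACGTG at 1, beginning 193 bases before the start, and no paired CACGNG. Among 32851 promoters of 300 bases (250 before the start and 50 after), 37.4% held at least 1 CCAAT, 11.7% held 2 or more and 0.0791% held 6 or more. The cuts of 2 and 6 are the counts found in Txnip and Arrdc4, so those shares are a description only. CACGTG was held by 7.15% and the paired CACGNG by 0.0487% (16 promoters). A promoter was at hand for 8 of the 9 genes, with Slc2a3 not matched. Mlx held CACGTG at 1 place, and no other member besides Arrdc4 did. These matches describe letters, not binding.

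Under HCD, Txnip was 24.4% lower than under CD and Slc2a3 33.2% higher, while the other 7 genes were not past the threshold of the fit over all genes. In that fit (limma on log2(FPKM + 1), Benjamini-Hochberg adjusted p under 0.05) 13.9% of all tested genes were past the threshold, 6.28% higher and 7.66% lower (670 and 818 genes, but 790 and 601 with TMM factors, and 778 and 591 after removal of the length trend). These 1488 genes became 2672 without HCD replicate 2, 435, 551 and 509 without CD replicates 1, 2 and 3, and 688 without HCD replicate 1. Of the 9 genes 2 were past it, 1 higher and 1 lower, and nothing is read from that share because the genes were proposed with this comparison known. CD and HCD values did not overlap for 3 of the 9 genes (Txnip, Slc2a3 and Txn1), against 37.7% of all tested genes. The median log2 change was -0.009 for the 9 genes and -0.033 for all tested genes, with 4 of the 9 above 0 and 5 below.

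**Figure D1:**
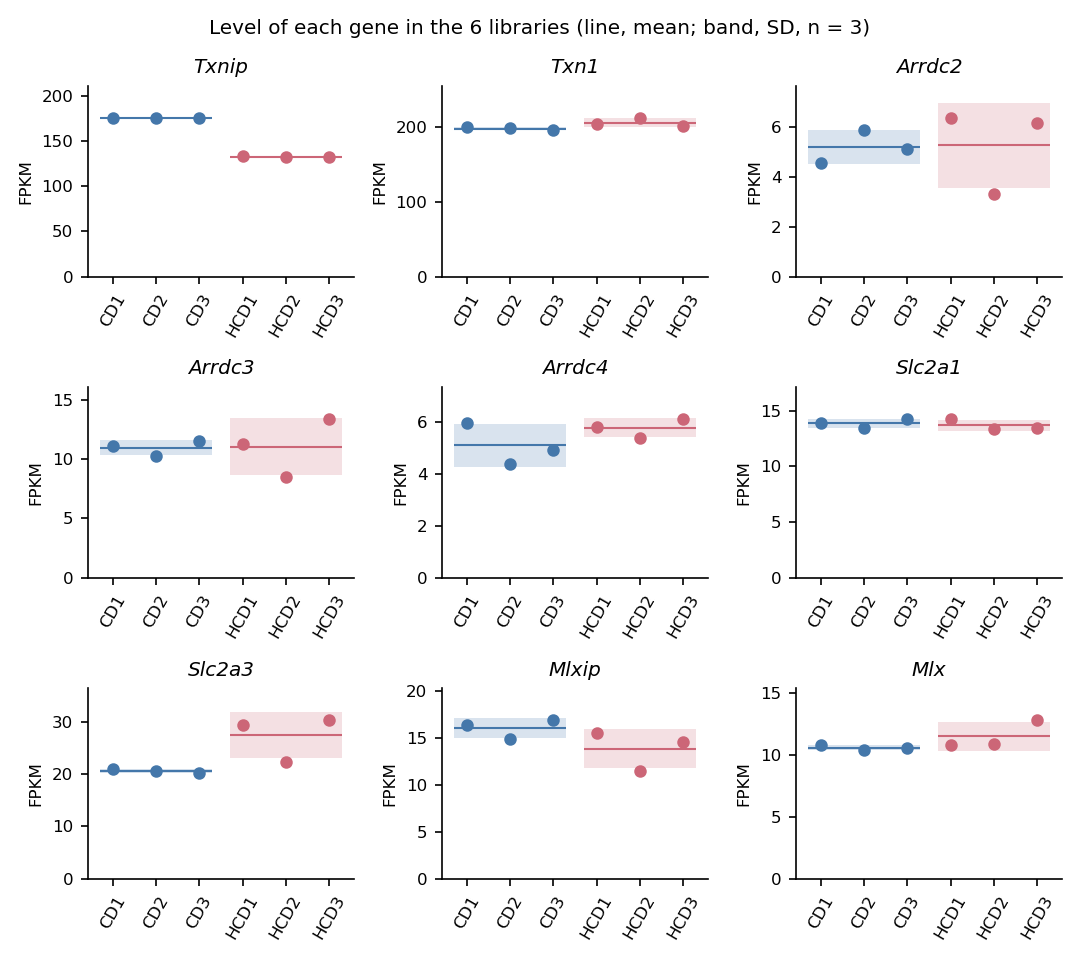
FPKM (y axes, from 0) of the 9 genes in each of the 6 libraries (x axes), with the mean as a line and the SD as a band for the 3 CD and the 3 HCD libraries. Txnip sits between 175.0 and 175.5 in CD and between 131.7 and 133.3 in HCD, while in Arrdc2, Arrdc3, Arrdc4, Slc2a1, Slc2a3 and Mlxip HCD replicate 2 is the lowest of the HCD libraries.

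Txnip (chromosome 3, 96557957 to 96561883, plus strand, GRCm38, 8 exons) was at 175.0, 175.5 and 175.4 FPKM in CD replicates 1, 2 and 3, and at 133.3, 132.6 and 131.7 in the HCD replicates. Every HCD library lay below every CD library, by a gap many times the spread within either group. The means were 175.3 ± 0.27 (SD, n = 3) and 132.5 ± 0.82 (SD, n = 3), and the log2 change was -0.40 ± 0.04 (SE). A change of larger size, in either direction, was fitted for 5.45% of tested genes. HCD replicate 2 did not stand apart here, with a difference from the CD mean of -0.40 on the log2 scale, against -0.39 and -0.41 for replicates 1 and 3. With any 1 of the 6 libraries left out the change stayed between -0.41 and -0.40, and Txnip was still counted as lower.

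The agreement of the Txnip values within each diet was closer than for most genes of like level. The same spread enters the error of the difference between diets, so it is no separate support for that difference. In CD the SD was 0.155% of the mean, and 0.554% of the 361 tested genes within 1.5 times of its level had a smaller one. In HCD it was 0.621%, with 1.94% of those genes smaller. At about 9387 reads or fragments per CD library, estimated from depth and transcript length, counting error alone would be 1.03% of the mean, so the spread of 3 values was here below the counting error and is a poor guide to the true error. The widest spread among the 9 in CD was that of Arrdc4, with an SD of 16.0% of the mean, and in HCD that of Arrdc2, at 32.4% (13.0% in CD). Of the genes of like level, 93.3% had a smaller SD than Arrdc4 in CD and 98.5% a smaller one than Arrdc2 in HCD.

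**Figure D2:**
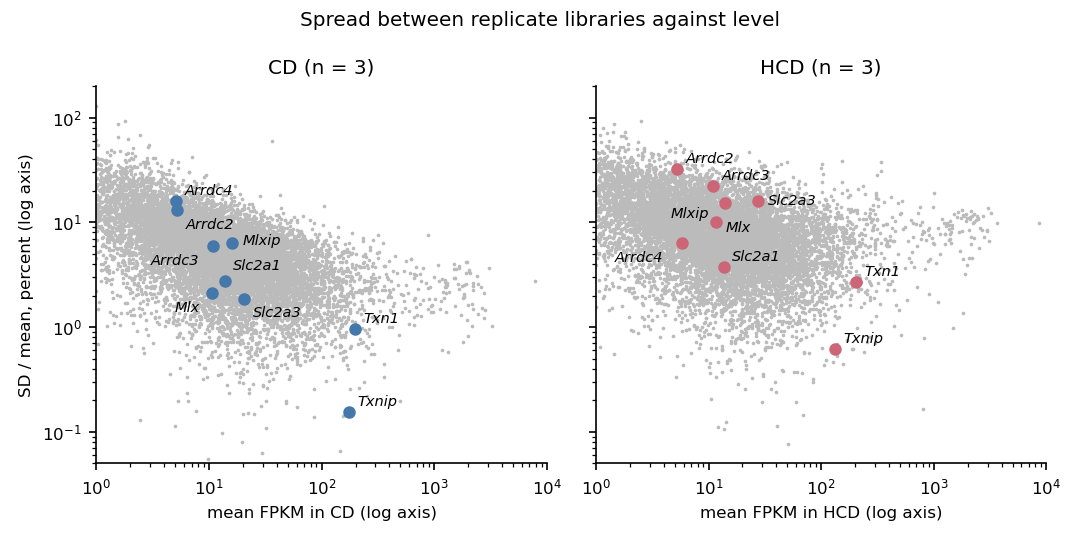
SD as a percent of the mean (y axis, log) against mean FPKM (x axis, log) within CD (left) and within HCD (right), for all tested genes (grey) and the 9 genes (coloured and named). Txnip lies at 0.155% in CD and 0.621% in HCD, low for its level, Arrdc2 lies at 13.0% and 32.4%, and Arrdc4 lies at 16.0% and 6.36%.

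Txn1 (chromosome 4, 57943373 to 57956411, minus strand, 5 exons), which encodes cytosolic thioredoxin, was the most abundant of the 9 on the FPKM scale, above 97.7% of tested genes, and Txnip the next, above 96.7%. Txn1 was at 199, 198 and 196 FPKM in the CD replicates and at 203, 212 and 202 in the HCD replicates. The HCD libraries were all above the CD libraries, with a log2 change of 0.06 ± 0.04 (SE), and Txn1 was not past the threshold. The means were 198 ± 1.90 and 206 ± 5.55 FPKM (SD, n = 3 each). The ratio of Txnip to Txn1 within a library, in which any scaling of the whole library cancels, was 0.878, 0.887 and 0.897 in CD and 0.656, 0.626 and 0.653 in HCD. Its mean was 0.887 ± 0.010 in CD and 0.645 ± 0.017 in HCD (SD, n = 3 each). It was lower in each HCD library than in any CD library. A trend against transcript length does not cancel in this ratio (2827 bp for Txnip and 1051 bp for Txn1). With that trend removed the log2 changes were -0.39 for Txnip and 0.02 for Txn1.

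**Figure D3:**
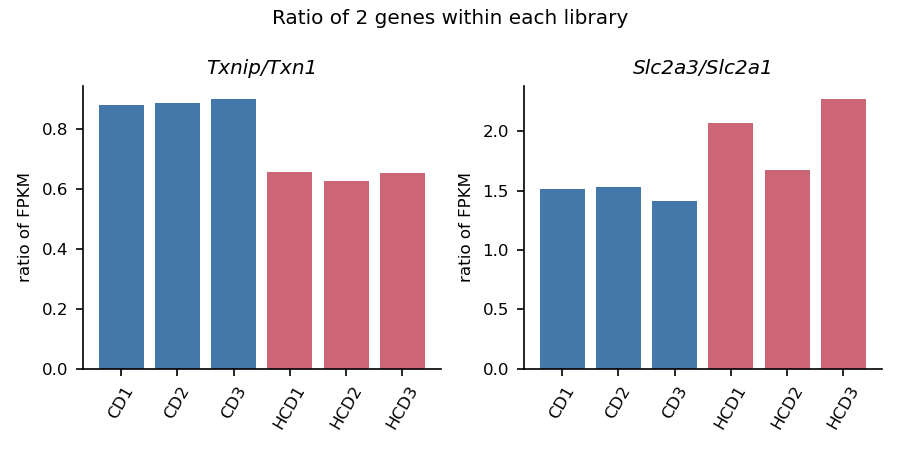
Ratio of FPKM of Txnip to Txn1 (left) and of Slc2a3 to Slc2a1 (right), y axes from 0, in each of the 6 libraries (x axes). The Txnip to Txn1 ratio is 0.878 to 0.897 in CD and 0.626 to 0.656 in HCD, and the Slc2a3 to Slc2a1 ratio is 1.41 to 1.53 in CD and 1.67 to 2.27 in HCD.

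The arrestin-domain genes Arrdc2, Arrdc3 and Arrdc4 encode alpha-arrestins that link membrane receptors and transporters to ubiquitin ligases, and none followed Txnip past the threshold. Arrdc4 (chromosome 7, 68736995 to 68749241, minus strand, 8 exons), which shares the glucose response and the action on glucose uptake, was at 5.99, 4.39 and 4.94 FPKM in CD and 5.81, 5.40 and 6.14 in HCD. The groups overlapped and the HCD mean was the higher one, at 5.78 ± 0.37 against 5.11 ± 0.82 (SD, n = 3 each), with a log2 change of 0.16 ± 0.11 (SE). The size rested on the CD libraries, at 0.26 without CD replicate 1 and 0.07 without CD replicate 2, neither past the threshold. With about 378 reads or fragments behind a CD value, counting error alone was 5.14% of the mean.

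Arrdc3 (chromosome 13, 80883384 to 80896042, plus strand, 8 exons), known for the turnover of the beta2-adrenergic receptor, was at 11.1, 10.3 and 11.5 FPKM in CD and at 11.2, 8.52 and 13.4 in HCD. The HCD libraries lay on both sides of the CD libraries, with replicate 2 the lowest of all 6 and replicate 3 the highest. Arrdc2 (chromosome 8, 70835129 to 70839720, minus strand, 8 exons) was at 4.57, 5.91 and 5.14 FPKM in CD and at 6.39, 3.31 and 6.16 in HCD, with HCD replicate 2 again the lowest and the other HCD libraries above every CD library. The log2 changes were -0.02 ± 0.20 for Arrdc2 and -0.01 ± 0.13 for Arrdc3 (SE), and both turned positive with TMM factors (0.01 and 0.02) or quantile normalization (0.02 and 0.03). With 1 library left out they ran from -0.15 (without HCD replicate 1) to 0.24 (without HCD replicate 2) for Arrdc2, and from -0.15 (without HCD replicate 3) to 0.15 (without HCD replicate 2) for Arrdc3. None of these passed the threshold, so neither gene had a direction that held. The immediate early genes were likewise least raised in HCD replicate 2. Their mean difference from the CD mean was 0.82 there on the log2 scale, and 1.29 and 1.31 in the other HCD libraries. Whether this bears on Arrdc2 and Arrdc3 was not tested.

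**Figure D4:**
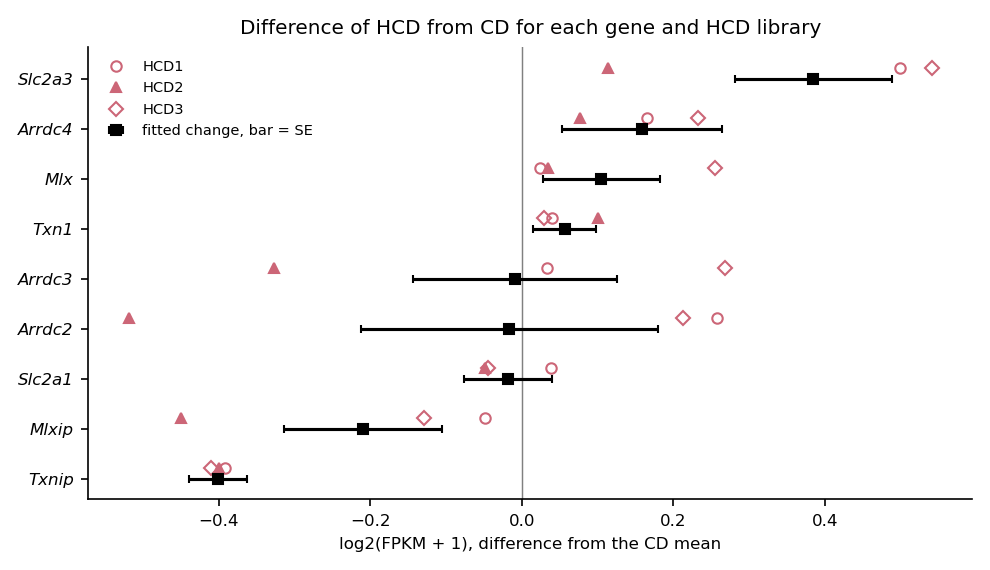
Difference from the CD mean on the log2(FPKM + 1) scale (x axis) for the 9 genes (y axis): coloured symbols are the 3 HCD libraries, the filled triangle is HCD replicate 2, and black squares are the fitted HCD minus CD changes with their SE. The 3 libraries coincide for Txnip near -0.40, and HCD replicate 2 lies to the left of the other HCD libraries for Arrdc2, Arrdc3, Arrdc4, Slc2a1, Slc2a3 and Mlxip (for Slc2a1 at -0.049 against -0.045 in replicate 3).

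Of the glucose transporter genes, Slc2a3 was past the threshold and Slc2a1 was not. Slc2a3 (chromosome 6, 122727809 to 122801640, minus strand, 9 exons), which encodes the high-affinity transporter GLUT3, was at 20.9, 20.7 and 20.2 FPKM in CD and at 29.5, 22.4 and 30.4 in HCD. Every HCD library was above every CD library, replicate 2 by the smallest margin, at 109% of the CD mean against 143% and 148% for HCD replicates 1 and 3. The means were 20.6 ± 0.38 and 27.4 ± 4.41 FPKM (SD, n = 3 each), and the log2 change was 0.38 ± 0.10 (SE). Slc2a3 was near the threshold and was no longer past it without the filter on low values, or when any library other than HCD replicate 2 was left out. The change was then 0.40, 0.39 and 0.37 without CD replicates 1, 2 and 3, and 0.33 and 0.31 without HCD replicates 1 and 3. Without HCD replicate 2 it was past the threshold, at 0.52.

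Slc2a1 (chromosome 4, 119108711 to 119137983, plus strand, 10 exons), which encodes the widespread basal transporter GLUT1, was at 13.9, 13.5 and 14.3 FPKM in CD and at 14.3, 13.4 and 13.4 in HCD. The groups overlapped, with a log2 change of -0.02 ± 0.06 (SE) whose sign was positive with TMM factors (0.01), quantile normalization (0.01) or the length trend removed (0.004). The ratio of Slc2a3 to Slc2a1 was 1.49 ± 0.06 in CD and 2.002 ± 0.303 in HCD (SD, n = 3 each), with no overlap between groups.

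Mlxip (chromosome 5, 123394798 to 123457932, plus strand, 17 exons), the MondoA gene, was at 16.3, 15.0 and 17.0 FPKM in CD and at 15.5, 11.5 and 14.6 in HCD. HCD replicate 2 was the lowest and HCD replicate 1 lay within the CD range. The log2 change was -0.21 ± 0.10 (SE), and -0.09 without HCD replicate 2 or -0.11 with the trend against transcript length removed; Mlxip has the longest annotated transcript of the 9, at 7303 bp. Mlx (chromosome 11, 101087277 to 101092207, plus strand, 8 exons), the shared partner, was at 10.9, 10.4 and 10.6 FPKM in CD and at 10.8, 10.9 and 12.9 in HCD, with the excess in HCD replicate 3 alone (log2 change 0.10 ± 0.08, SE). Neither was past the threshold. Mlxipl, which encodes ChREBP, did not exceed 0.0391 FPKM in any library, so Mlxip was the member of that pair with a measurable level in these cells.

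By level per transcript length, the order in CD was Txn1, Txnip, Slc2a3, Mlxip, Slc2a1, Arrdc3, Mlx, Arrdc2 and Arrdc4. Arrdc3 and Mlx overlapped in both diets, as did Arrdc2 and Arrdc4, so the order within those pairs was not beyond the spread. Mlxip and Slc2a1 did not overlap in CD (15.0 to 17.0 against 13.5 to 14.3 FPKM) but did in HCD (11.5 to 15.5 against 13.4 to 14.3).

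Over the 6 libraries, the 5 genes of at least 10 FPKM whose log2(FPKM + 1) followed Txnip most closely, among 6174 compared, were Shisa8, Cyld, Hsph1, Dnaja1 and Hsp90b1, with Pearson r from 0.9979 to 0.9996. All 5 had lower means under HCD, and with 6 points in 2 tight groups r mainly reflects that step, so it is given as a description only. Cyld, a deubiquitinase gene of NF-kB signalling, went from 12.8 ± 0.05 to 10.5 ± 0.07 FPKM, and the co-chaperone gene Dnaja1 from 101 ± 1.03 to 69.9 ± 1.28 (SD, n = 3 each). The averaged pattern of Arrdc2, Arrdc3 and Arrdc4 was closest to Abhd11 (r = 0.9964), Chd6 (0.9963) and Nfkbia (0.9942), the gene of an NF-kB inhibitor, each with a log2 change between 0.08 and 0.13.

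Genes that act with these 9 were taken from textbook lists of 101 genes, 82 of which were tested. Of the 82, 8 rose and 9 fell (17, or 20.7%, against 13.9% of all tested genes), and their median change was -0.035 (log2) beside -0.033 for all. Leaving out Slc2a6 and Pfkfb1, which reached 1 FPKM in all libraries of 1 diet but not of the other, 7 of 80 rose and 9 fell. With the length trend removed 9 of the 82 rose and 4 fell. Of the 20 genes of the thioredoxin system 1 rose and none fell. It was Msrb1, a methionine sulphoxide reductase gene, from 23.7 ± 2.23 to 36.1 ± 0.77 FPKM (limma adjusted p = 0.00173). The peroxiredoxin gene Prdx1 was at 183 ± 5.42 and 167 ± 4.52 (adjusted p = 0.0789) and the thioredoxin reductase gene Txnrd1 at 61.3 ± 2.36 and 57.2 ± 2.77 (adjusted p = 0.234). Prdx5 leaned the other way, at 102 ± 4.81 and 119 ± 10.1 (adjusted p = 0.0614), as did Glrx, at 29.3 ± 0.77 and 34.9 ± 3.85 (adjusted p = 0.0705). Of the 20 genes 8 had a change above 0, so the list had no common direction. Of 3 other arrestin genes tested none passed, with Arrb2, the most expressed, at 42.5 ± 3.26 and 43.3 ± 4.16 FPKM (adjusted p = 0.858). Among 9 tested NEDD4-type ubiquitin ligases and adaptors, which arrestin-domain proteins recruit, Nedd4 fell from 127 ± 2.11 to 107 ± 0.47 FPKM (adjusted p = 0.0065). Itch, whose product targets TXNIP for degradation, was at 20.8 ± 0.14 and 19.5 ± 0.41 (adjusted p = 0.25).

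Of the 5 other hexose transporters tested, from 12 listed, 3 rose and none fell (6.28% and 7.66% of all tested genes). Their median change was 0.37 (log2), beside -0.033 for all tested genes. Slc2a6 is among the risers but passed the filter through its HCD values, with 1 CD library at 1 FPKM or more. Without it 2 of 4 rose and the median was 0.23. Slc2a9, known as a urate transporter, rose from 4.20 ± 0.31 to 6.83 ± 0.20 FPKM (limma adjusted p = 0.00291). Slc2a6 rose from 0.95 ± 0.16 to 1.91 ± 0.09 (adjusted p = 0.00838) and Slc2a8 from 2.63 ± 0.14 to 3.70 ± 0.22 (adjusted p = 0.0221). Each was well below Slc2a3 and Slc2a1 in level.

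Of 9 tested genes known as targets of MLX with MondoA or ChREBP, other than Txnip and Arrdc4, 2 rose and 5 fell (6.28% and 7.66% of all tested genes). The list's median change was -0.23 (log2), beside -0.033 for all tested genes. The fallers were the lipid synthesis genes Fasn, Acaca and Elovl6, the hexokinase gene Hk2 and the transcription factor gene Klf10, and the risers were the fructose pathway genes Khk and Tkfc. Acaca fell from 11.2 ± 0.53 to 7.96 ± 0.62 FPKM (adjusted p = 0.00815), Hk2 from 14.3 ± 0.33 to 12.0 ± 0.35 (adjusted p = 0.0343) and Klf10 from 10.4 ± 0.82 to 7.84 ± 0.67 (adjusted p = 0.0253). Khk, the ketohexokinase gene, rose from 25.9 ± 2.0 to 35.9 ± 2.71 (adjusted p = 0.00754) and Tkfc from 6.32 ± 0.57 to 8.46 ± 0.76 (adjusted p = 0.0317). Fasn and Elovl6 had log2 changes of -0.49 ± 0.05 and -0.28 ± 0.06 (SE, adjusted p = 0.00132 and 0.019). With the length trend removed Acaca, Elovl6 and Hk2 were no longer past the threshold. Fasn (then -0.33), Klf10 (-0.35), Khk (0.44) and Tkfc (0.38) still were. Fatty acid synthesis genes are also known targets of SREBP factors, so this list is not specific to MLX.

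In the remaining lists, Hk2 was the 1 faller of 15 genes of glucose phosphorylation and pentose phosphate entry. Of 13 genes of AMPK and energy sensing, Prkab1, an AMPK regulatory subunit gene, rose from 21.9 ± 0.30 to 30.1 ± 2.38 FPKM (limma adjusted p = 0.00447), and Tbc1d4, whose product restrains glucose transporter vesicles, fell from 6.44 ± 0.32 to 4.84 ± 0.30 (adjusted p = 0.0219). Among other MLX network genes the repressor gene Mxd1 had a log2 change of 0.30 ± 0.08 (adjusted p = 0.0486) and Mga of -0.37 ± 0.10 (SE; adjusted p = 0.0453). Of 8 tested regulators and partners of TXNIP 1 fell, the forkhead factor gene Foxo3, from 34.5 ± 1.43 to 30 ± 0.49 (adjusted p = 0.0339).

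Setting Slc2a6 aside, 6 of the other 16 calls held under all 13 alternatives (Msrb1, Nedd4, Slc2a9, Fasn, Khk and Prkab1). That of Slc2a6 held under 12 and was not tested with the filter of 5 FPKM. Those of Mga, Hk2, Acaca, Elovl6 and Foxo3 were lost when the trend against transcript length was removed, with log2 changes of -0.16, -0.16, -0.31, -0.20 and -0.10. Without the filter on low values those of Mxd1, Mga, Klf10 and Tkfc ended, with a filter of 5 FPKM that of Mxd1, with TMM factors those of Hk2 and Foxo3 (-0.20 and -0.17), and with quantile normalization that of Hk2 (-0.19). Leaving out any library except HCD replicate 2 ended the calls of Slc2a8 (0.34 to 0.41 over the libraries left out), Mxd1 (0.26 to 0.37), Mga (-0.43 to -0.25), Hk2 (-0.25 to -0.21) and Foxo3 (-0.23 to -0.18). Leaving out any CD library or HCD replicate 1 ended those of Elovl6 (-0.30 to -0.25) and Tkfc (0.30 to 0.44) and that of Tbc1d4 (-0.38 to -0.31). That of Klf10 (-0.42 to -0.31) ended without CD replicate 1, CD replicate 3 or HCD replicate 1. The number of calls among the 82 genes was 29 without HCD replicate 2 and 8 without CD replicate 1 or CD replicate 3.

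**Figure D5:**
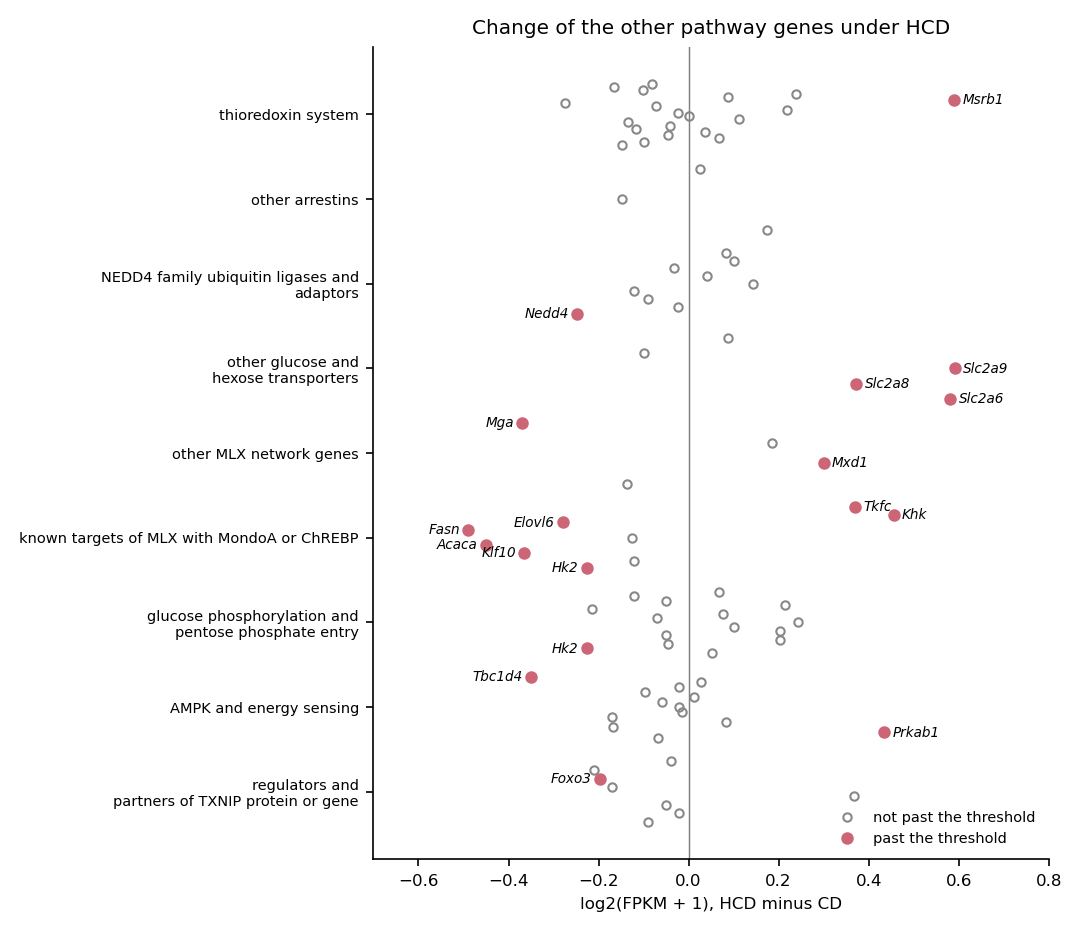
Log2(FPKM + 1) change, HCD minus CD (x axis), of each tested gene of the 9 pathway lists outside the members (y axis). Each list has 1 point per gene, spread vertically only to separate them. A gene on more than 1 list, such as Hk2, is drawn in each. Filled points passed the threshold, as did 13.9% of all tested genes, and are named. Of the 5 other hexose transporters 3 filled points lie to the right. Of the 9 known MLX targets 5 filled points lie to the left and 2 to the right.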

How the data were processed

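RNA sequencing of 3 CD and 3 HCD libraries was used, made per the labels' protocols from sorted cells with a stranded mRNA kit. Per the submitters' processing notes, the tools were fastp, HISAT2 and StringTie, with GRCm38 and mm10 as builds. Their versions, the annotation and the strand setting are not given in the sources used. The authors deposited 1 value per gene and library, taken as FPKM from the values, since the file headers name only the sample. Of 21878 rows 27 carried a date for a name (0.127% of the FPKM) and were left out. Genes overlap members at several places, Mlx with Psmc3ip among them, and how the authors split such reads is not given here.

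Values were tested on log2(FPKM + 1) with limma 3.58.1 (R 4.3.3; trend, robust, two-sided, no covariate) on every gene reaching 1 FPKM in 3 or more libraries. P-values were adjusted by Benjamini-Hochberg and 0.05 was the threshold; the fit was tested on simulated data. TMM factors are the trimmed mean of M values, computed without weights on the FPKM table. Since the unit is FPKM, no count model was used. Depth was estimated from the value of 1 read in low genes with a single GENCODE vM21 transcript. Positions are from the same annotation and promoters from RefSeq. Members and lists were chosen with earlier results of these data known. Named were every member, every list gene past the threshold, the most expressed gene of a list with none, and the genes most like Txnip. Prdx1, Prdx5, Glrx, Txnrd1, Itch, Slc50a1, Slc2a10 and Mlxipl were named after their values were seen.

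Replicate numbers in the titles recur in both groups. Deviations from the group means correlated across genes at 0.103, 0.292 and 0.166 for same-numbered libraries and at -0.25 to 0.098 otherwise. The clearest likeness was that of replicate 2, while CD replicate 1 was about as like HCD replicate 3 (0.098) as HCD replicate 1 (0.103). The numbers were treated as possible pairs in an alternative fit. No label states that they pair.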

Additional observations from a re-analysis of the deposited data

How the results depend on the processing

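The 13 alternatives were another pseudocount, 2 other filters, TMM factors, quantile normalization, the trend against transcript length removed, the replicate block, and each library left out. Txnip was lower and past the threshold in all 13, with log2 changes from -0.41 to -0.37. The 1488 genes past the threshold became 1149 to 1873 under the first 7. They were 435, 551 and 509 without CD replicates 1, 2 and 3, 688 and 1081 without HCD replicates 1 and 3, and 2672 without HCD replicate 2, which adds spread within its group. Among the pathway genes the 17 calls of 82 tested became 13 to 23 under the first 7, and 8 to 29 with a library left out. The number tested was 97 without the filter on low values and 72 with the filter of 5 FPKM. With the replicate block 1873 genes and 23 pathway genes passed, and the block ended no call of a named gene. The split of higher and lower genes was 670 and 818, but 790 and 601 with TMM factors and 778 and 591 with the length trend removed. Across genes, length and log2 change had a Spearman rho of -0.25 (10354 genes, not independent replicates). Estimated read numbers were lowest for Arrdc2, Arrdc4 and Mlx (232 to 396 per CD library), where counting error alone was 5.03% to 6.56% of the mean.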
